A study of Mus musculus with 39 samples.

Results

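The 10 genes described here, Trem2, Tyrobp, Gpnmb, Cd9, Cd63, Lgals3, Apoe, Lpl, Fabp5 and Plin2, are known from macrophages that take up and store lipid. They were taken by name, not by their values, from the 43430 genes of the count table, and all 10 were matched and tested. The libraries came from lung cells of C57BL/6J mice sorted by flow cytometry. There were 8 groups. Lung monocytes of naive mice came from young saline, young ISRIB, old saline and old ISRIB animals, with 5 libraries each. Alveolar macrophages with low Siglec F, described by the submitters as monocyte-derived, came from mice given bleomycin, with 5 young saline, 4 young ISRIB, 5 old saline and 5 old ISRIB libraries. Young mice were 8 to 12 weeks old and old mice over 18 months by the sample labels, but 3 to 5 and 18 to 24 months by the series text. Bleomycin damages lung epithelium and is used to cause fibrosis. ISRIB, a compound that restores translation in cells whose integrated stress response is active, or its vehicle was injected each day starting on day 7, and cells were taken on day 21 after bleomycin. No timing is stated for the naive mice. All macrophages, saline controls included, came from mice given bleomycin and all monocytes from naive mice, so cell type and injury cannot be told apart. The labels do not say whether each library came from a separate mouse or from pooled mice, and p-values measure the spread between libraries, which may in part be technical.

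TREM2 is a surface receptor of myeloid cells that binds lipids, lipoproteins and dying cells, and it signals through the adaptor TYROBP, also called DAP12. Macrophages that engulf lipid-rich debris carry a recurring set of transcripts beside Trem2, among them genes for lipoprotein handling, fatty acid transport, lipid droplets and lysosomal membranes. In lung fibrosis such macrophages arise largely from recruited monocytes. Of the other members, GPNMB is a transmembrane glycoprotein of endosomes and lysosomes whose gene is a known target of the MiT/TFE transcription factors, CD9 and CD63 are tetraspanins of the cell surface and late endosomes, and LGALS3 is a galectin that binds damaged membranes. APOE carries lipid out of macrophages, LPL hydrolyses the triglyceride of lipoproteins, FABP5 carries fatty acids in the cytosol, and PLIN2 coats lipid droplets.

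The promoters of Trem2, Gpnmb and Cd63 are shown because the receptor names the set and because the other 2 had the largest differences between cell types. Each run is the 250 bases before the RefSeq start, 5′ to 3′ on the gene's strand (GRCm38.p6), at chr17:48346151-48346400 (+) for Trem2, chr6:49036268-49036517 (+) for Gpnmb and chr10:128909095-128909344 (+) for Cd63. The Cd63 window lies inside the gene as annotated in GENCODE (chr10:128900989-128912822), downstream of that annotation's start. Capitals mark matches, on either strand, to the PU.1 core GAGGAA, the MiT/TFE E-box CACGTG, the AP-1 site TGANTCA or the nuclear receptor half-site AGGTCA.
Trem2: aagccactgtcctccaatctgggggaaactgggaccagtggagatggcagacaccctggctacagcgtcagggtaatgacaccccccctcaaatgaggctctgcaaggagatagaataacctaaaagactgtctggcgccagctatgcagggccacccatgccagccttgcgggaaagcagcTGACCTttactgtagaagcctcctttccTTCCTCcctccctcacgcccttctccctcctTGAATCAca
Gpnmb: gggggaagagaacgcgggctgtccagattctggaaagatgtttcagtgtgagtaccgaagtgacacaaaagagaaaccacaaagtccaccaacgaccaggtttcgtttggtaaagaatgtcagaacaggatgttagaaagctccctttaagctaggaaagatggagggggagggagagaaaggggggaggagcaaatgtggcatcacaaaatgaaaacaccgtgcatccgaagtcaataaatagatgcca
Cd63: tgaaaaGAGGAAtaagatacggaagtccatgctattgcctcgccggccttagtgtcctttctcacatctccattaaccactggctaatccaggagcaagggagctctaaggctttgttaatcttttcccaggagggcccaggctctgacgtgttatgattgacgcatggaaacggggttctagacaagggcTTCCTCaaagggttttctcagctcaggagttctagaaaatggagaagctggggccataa
No 2 of these matches overlapped. Trem2 held a PU.1 core at bases -40 to -35 from the start, an AP-1 site at -9 to -3 and a half-site at -68 to -63, and Cd63 held the PU.1 core at -244 to -239 and at -59 to -54. The Gpnmb window held none of the 4. RefSeq promoters were matched for 7 of the 10 genes, 9 promoters in all. A gene was counted if any of its promoters held the match, whereas the shares beside the counts are per promoter. Among them the PU.1 core was in 3 (Trem2, Cd63 and Apoe), against 23.3% of 32851 promoters, the half-site in 2 (Trem2 and Plin2) against 14.02%, the AP-1 site in 1 (Trem2) against 6.75%, and the E-box in 0 against 6.02%. These are matches of letters and not measured binding.

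Each library held between 4595331 and 16056708 counts (median 8628240). Levels are given as CPM, counts scaled by each library's total and its TMM factor over all 39 libraries, as mean ± SD. The sort labels were checked against marker genes. The summed CPM of 6 classical monocyte markers was 4622 to 10517 in monocytes and 108 to 542 in macrophages, and that of 8 mature alveolar macrophage markers was 38.3 to 119 and 889 to 2236. The sum of 7 interstitial macrophage markers was 30.5 to 66.5 CPM in young saline monocytes and 3818 to 4813 CPM in young saline macrophages. In every macrophage group it lay above the sum of the mature alveolar macrophage markers. Whether the sorted cells included interstitial macrophages was not tested. In these bulk libraries, fewer cells of a type and less RNA per cell cannot be told apart.

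Macrophages after bleomycin had far more RNA of this set than naive monocytes. With edgeR's quasi-likelihood test at an adjusted p under 0.05, 9 of the 10 genes were higher in macrophages in young saline mice, where 60% of 13587 genes were called and 31% were higher. The count was also 9 of 10 in young ISRIB mice (57.3% called, 29.5% higher), old saline mice (57% called, 29.7% higher) and old ISRIB mice (59.4% called, 30.8% higher). The median log2 difference of the 10 genes was 3.81 in young saline mice, against 0.01 over all genes. Together the 10 genes took 0.35% ± 0.13 of all counts in young saline monocytes and 1.99% ± 0.14 in young saline macrophages (SD, n = 5 each). The exception in all 4 comparisons was the adaptor Tyrobp.

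**Figure D1:**
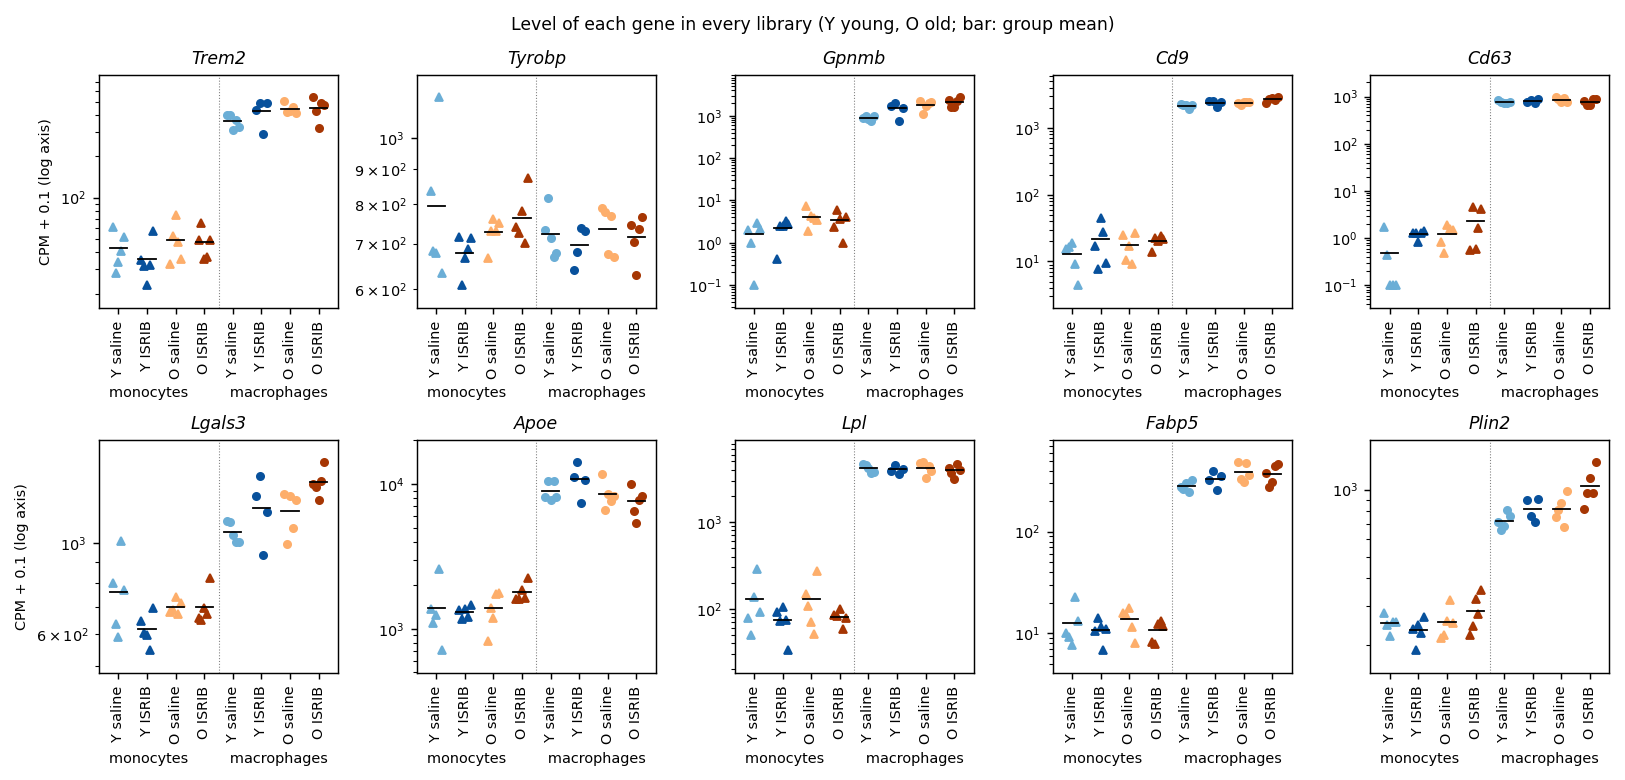
Level of each gene in every library as CPM + 0.1 on a log axis, with triangles for naive monocytes, circles for macrophages after bleomycin, and a bar at each group's mean; Y is young and O is old. Cd63 and Gpnmb lie near 0 in monocytes (at most 4.47 and 7.11 CPM), whereas the Tyrobp ranges overlap (608 to 1148 CPM in monocytes, 629 to 816 CPM in macrophages).

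Trem2 (ENSMUSG00000023992, chr17:48346401-48354147, + strand, GRCm38) measured 61.0, 28.3, 33.8, 40.6 and 51.4 CPM in the young saline monocytes and 398, 404, 314, 371 and 328 CPM in the young saline macrophages. No library of either group reached the other, which held for 8 of the 10 genes (the share over all genes is not given here). The difference was 3.07 ± 0.22 on the log2 scale (SE; edgeR adjusted p 4.24e-15), with 3.58 ± 0.23 in young ISRIB, 3.20 ± 0.22 in old saline and 3.26 ± 0.22 in old ISRIB mice. Its signalling partner Tyrobp (ENSMUSG00000030579, chr7:30413760-30417585) measured 835, 684, 679, 1148 and 634 CPM in young saline monocytes and 734, 816, 714, 670 and 677 CPM in young saline macrophages. These ranges overlapped, and the log2 difference was -0.14, with a 95% interval of -0.35 to 0.07 (adjusted p 0.252). In the other 3 kinds of mice the Tyrobp difference was 0.04, 0.02 and -0.09. Over all libraries Tyrobp ran from 608 to 1148 CPM in monocytes and from 629 to 816 CPM in macrophages.

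Gpnmb (ENSMUSG00000029816, chr6:49036546-49070929) was close to absent from monocytes. Its monocyte levels were 1.89, 0.873, 0, 2.86 and 2.04 CPM in young saline mice, and all 20 monocyte libraries together held 503 counts of it. Young saline macrophages held 901, 1011, 837, 770 and 986 CPM. The ratio of its share of all counts was 644 (95% interval 497 to 850, counting error only), and the fitted log2 difference was 9.29 ± 0.44 (SE, adjusted p 1.03e-20). The ratio was 676 in young ISRIB, 420 in old saline and 581 in old ISRIB mice.

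Of the tetraspanins, Cd63 had the largest difference of all 10 genes in young saline mice. Cd63 (ENSMUSG00000025351, chr10:128900989-128912822) measured 1.58 and 0.327 CPM in 2 young saline monocyte libraries and had 0 counts in the other 3, where 3 counts would have been 0.347 to 0.653 CPM. Young saline macrophages held 831, 780, 731, 736 and 756 CPM, and the ratio of its share of all counts was 1693 (95% interval 1071 to 2857, from 18 monocyte counts). Of these, 15 were in replicate 1, and without that library the ratio was 7597 (2599 to 36839, from 3 counts). In old ISRIB mice, whose monocytes held 105 counts of Cd63, the ratio was 325 (269 to 398), and 510 without old ISRIB monocyte replicate 2. The pseudogene Cd63-ps, which matches Cd63 over 812 bases at 98.5% identity, held 599 counts over all libraries against 129115 of Cd63, and reads of the pair could have been split between them. Cd9 (ENSMUSG00000030342, chr6:125460266-125494791, - strand) rose from 12.7 ± 5.97 CPM in young saline monocytes to 2169 ± 153 CPM in macrophages (SD, n = 5 each), a log2 difference of 7.39 ± 0.37. Its exons overlap the antisense gene Gm26728 by 218 bases, and whether counting used strand is not given in the sources used here.

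Lgals3 (ENSMUSG00000050335, chr14:47367751-47386160) had the smallest called difference. It measured 802, 633, 588, 1010 and 768 CPM in young saline monocytes and 1131, 1126, 1048, 1007 and 1008 CPM in macrophages. The groups overlapped through the single monocyte library at 1010 CPM, replicate 4, which also had the lowest library total of the series. The log2 difference was 0.49 ± 0.11 (SE, adjusted p 0.000317), and it was 0.99, 0.78 and 1.01 in young ISRIB, old saline and old ISRIB mice.

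The 4 genes of lipid handling were higher in every macrophage library than in any monocyte library. The share of all genes without overlap is not given here, but 57% to 60% of genes were called between the cell types. Apoe (ENSMUSG00000002985, chr7:19696109-19699188, - strand) was already abundant in monocytes, at 709 to 2590 CPM, and reached 5392 to 14114 CPM in macrophages, with a log2 difference of 2.69 ± 0.23 in young saline mice. Lpl (ENSMUSG00000015568, chr8:68880491-68907448) went from 128 ± 92.7 to 4170 ± 435 CPM in those mice, a log2 difference of 5.04 ± 0.37. Fabp5 (ENSMUSG00000027533, chr3:10012548-10016607) went from 12.4 ± 5.98 to 281 ± 29.1 CPM, a log2 difference of 4.55 ± 0.24. It has 5 near-identical genes or pseudogenes, which held 245 counts in all against 57494 of Fabp5. Plin2 (ENSMUSG00000028494, chr4:86648386-86670060, - strand) was at 251 ± 21.7 and 724 ± 60.8 CPM, a log2 difference of 1.53 ± 0.13 (SD or SE, n = 5 per group).

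**Figure D2:**
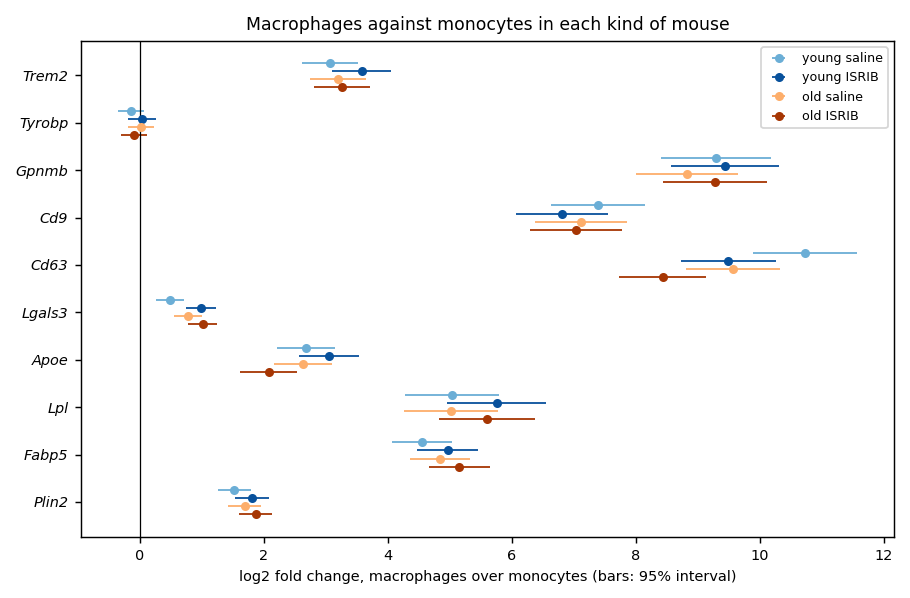
Log2 fold change of macrophages after bleomycin over naive monocytes for each gene (horizontal axis), in 4 kinds of mice, with 95% intervals as bars. The young saline values run from -0.14 for Tyrobp to 10.73 for Cd63.

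Compared per kilobase of exon, the order of the genes differed between the cell types. In young saline macrophages Apoe stood highest at 4216 ± 635 CPM per kb, followed by Tyrobp (1083 ± 87.9) and Cd9 (1061 ± 74.6), which did not differ beyond their spread. Lgals3 followed at 573 ± 32.9, Lpl at 398 ± 41.5, Cd63 at 208 ± 11.1 and Plin2 at 206 ± 17.3 CPM per kb, the last 2 within their spread of each other. Gpnmb stood at 138 ± 15.5, and Fabp5 (78.9 ± 8.16) and Trem2 (73.4 ± 8.20) were lowest and within their spread of each other. The order depended on the length used. Per kb of the coding transcript, a length chosen after seeing the data, Cd9 (1766 ± 124) lay above Tyrobp (1209.7 ± 98.2) beyond their spread, Lpl (1013 ± 106) above Lgals3 (749.8 ± 43.1) and Cd63 (691 ± 36.98) above Plin2 (383 ± 32.2), with Trem2 at 344 ± 38.4, Fabp5 at 285 ± 29.5 and Gpnmb lowest at 243 ± 27.2. In young saline monocytes Tyrobp led at 1194 ± 317 CPM per kb of exon, then Apoe (655 ± 332) and Lgals3 (409 ± 89.3), and Cd63 was last at 0.10 ± 0.19.

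The genes around the receptor did not follow Trem2. Counts of called genes in the lists below were read against 60% of 13587 genes called and 31% higher in the same comparison. Of 20 signalling partners and relatives of TREM2, 4 were higher and 14 lower in young saline macrophages than in young saline monocytes. Ms4a7 (3.72 ± 0.32, log2, SE), Ms4a6d (0.92 ± 0.22) and Adam10 (0.90 ± 0.16), a protease that sheds TREM2, were higher. The largest falls were in Ms4a4a (-4.91 ± 0.28) and the TREM family receptors Treml4 (-4.00 ± 0.37) and Trem3 (-3.83 ± 0.35). Of 4 MiT/TFE factors, Tfec (2.85 ± 0.42) and Mitf (1.46 ± 0.19) were higher, and Tfeb and Tfe3 were not called. Among 14 other tetraspanins and galectins, 10 were higher and 1 lower, with Cd81 (4.54 ± 0.32), Tspan4 (3.39 ± 0.33) and the galectin Lgals1 (1.62 ± 0.15) leading and Cd37 lower (-0.60 ± 0.15).

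Genes of lipid handling were called in both directions. In young saline mice 60% of all genes were called between the cell types and 31% were higher in macrophages. Of 14 genes for apolipoproteins, lipoprotein receptors and efflux, 12 were tested, 5 were higher and 5 lower in young saline macrophages. The receptor gene Lrp12 (5.05 ± 0.33) and the cholesterol exporters Abca1 (3.58 ± 0.22) and Abcg1 (3.19 ± 0.17) were higher. The apolipoprotein Apoc2 (-1.84 ± 0.27), Apobec1 (-0.70 ± 0.12) and Nr1h2 (-0.42 ± 0.10) were lower. Of 27 genes for fatty acid uptake, droplets and lipolysis, 24 were tested, 13 were higher and 4 lower. The monoglyceride lipase Mgll (8.95 ± 0.42), the droplet protein Cidec (7.99 ± 1.05) and the LPL inhibitor Angptl4 (6.32 ± 0.36) had the largest rises, and the lipase inhibitor G0s2 (-5.93 ± 0.89), the hormone-sensitive lipase Lipe (-1.90 ± 0.15) and the LPL maturation factor Lmf1 (-1.07 ± 0.13) were lower. Mgll, Cidec and G0s2 were under 1 CPM on average in their lower group, so their fitted sizes are imprecise. Of 20 further genes of lipid-associated macrophages, 19 were higher and 0 lower, and Cst7 was not called (-1.82 ± 1.03). Spp1, which encodes osteopontin, led with 1.47 ± 0.96 CPM in young saline monocytes and 12429 ± 689 CPM in young saline macrophages (SD, n = 5 each). Syngr1 had no count in those monocytes and 45.4 ± 4.53 CPM in the macrophages, and Atp6v0d2 went from 0.39 ± 0.74 to 877 ± 67.0 CPM. The medians of these lists were -0.56 (TREM2 partners), 0.69, 0.83, 0.05, 0.63 and 3.20 in the order given, against 0.01 over all genes.

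Among macrophages, age moved Gpnmb and none of the other members past the test. In saline mice 1 of 10 genes was called, higher in old macrophages, where 1.16% of 12171 genes were called and 0.937% were higher. Gpnmb measured 901, 1011, 837, 770 and 986 CPM in young saline and 2277, 1127, 1708, 1965 and 2132 CPM in old saline macrophages. All old libraries lay above all young ones, old replicate 2 by the smallest margin. The means were 901 ± 101 and 1842 ± 452 CPM (SD, n = 5 each), a log2 difference of 1.03 ± 0.19 (SE; edgeR adjusted p 0.00912). It was called without any 1 of the 10 libraries (log2 0.94 to 1.17, adjusted p 0.00147 to 0.0403), and not called where all 39 libraries shared 1 fit (1.03, adjusted p 0.0907).

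In saline mice 2 of the 10 genes, Gpnmb and Trem2, did not overlap between the ages, and the share over all genes is not given here. Trem2 did not pass the test. It was 398, 404, 314, 371 and 328 CPM in young saline and 508, 420, 432, 457 and 415 CPM in old saline macrophages, so the groups did not overlap, but the log2 difference of 0.30 ± 0.13 had an adjusted p of 0.308. Its adaptor Tyrobp differed by 0.03 (95% interval -0.13 to 0.19). Fabp5 was 278, 263, 300, 247 and 320 CPM in young saline and 482, 329, 308, 480 and 360 CPM in old saline macrophages. Old replicates 1 and 4 were high and replicate 3 lay within the young range, and the log2 difference was 0.48 ± 0.14 (edgeR adjusted p 0.107; 0.0367 by DESeq2). The other 6 members had log2 differences of -0.07 (Apoe) to 0.18 (Plin2 and Cd63). The median over the 10 genes was 0.18, against 0.00 over all genes, and 9 of 10 were above 0.

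Under ISRIB the comparison of ages called 0 of 10 genes by edgeR, DESeq2 and limma voom, where 0.937% of genes were called by edgeR. An unadjusted edgeR p under 0.05 was found for 3 members, and for 1485 of all 12171 genes. The 3 members were Apoe, Plin2 and Gpnmb. Apoe was 11157, 14114, 7377 and 10687 CPM in young ISRIB and 10029, 6482, 5392, 7731 and 8300 CPM in old ISRIB macrophages, with overlapping ranges and a log2 difference of -0.51 ± 0.17 (adjusted p 0.162). Plin2 was 899, 760, 717 and 908 CPM in young ISRIB and 817, 965, 1129, 961 and 1323 CPM in old ISRIB macrophages (0.34 ± 0.12, adjusted p 0.181). Gpnmb was 1730, 1988, 757 and 1552 CPM in young ISRIB and 2313, 1645, 1606, 2227 and 2757 CPM in old ISRIB macrophages (0.49 ± 0.21, adjusted p 0.308). Without a filter on low counts edgeR called all 3 (adjusted p 0.000824, 0.0468 and 0.00807). Calls outside the members rose there too. In the list for fatty acid uptake, droplets and lipolysis edgeR called 0 genes with the filter and 8 without it. The share of all genes called without a filter is not given here.

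Averaged over saline and ISRIB, Gpnmb was again the only member called as different with age (log2 0.76 ± 0.14, edgeR adjusted p 0.00185), and 4.86% of 12171 genes were called and 3.12% were higher. It was called without any 1 of the 19 libraries (log2 0.65 to 0.84). Plin2 (0.26 ± 0.08, adjusted p 0.063), Fabp5 (0.33 ± 0.10, adjusted p 0.071) and Cd9 (0.15 ± 0.05, adjusted p 0.105) came next, and Apoe was at -0.29 ± 0.12 (adjusted p 0.17). Fabp5 passed without young ISRIB replicate 2, old saline replicate 2 or 3, or old ISRIB replicate 2 (adjusted p 0.0469, 0.0442, 0.0482 and 0.034), and Plin2 without old saline replicate 4 or old ISRIB replicate 1 (0.0343 and 0.0286). DESeq2 called both beside Gpnmb (0.0285 for Fabp5 and 0.0277 for Plin2).

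**Figure D3:**
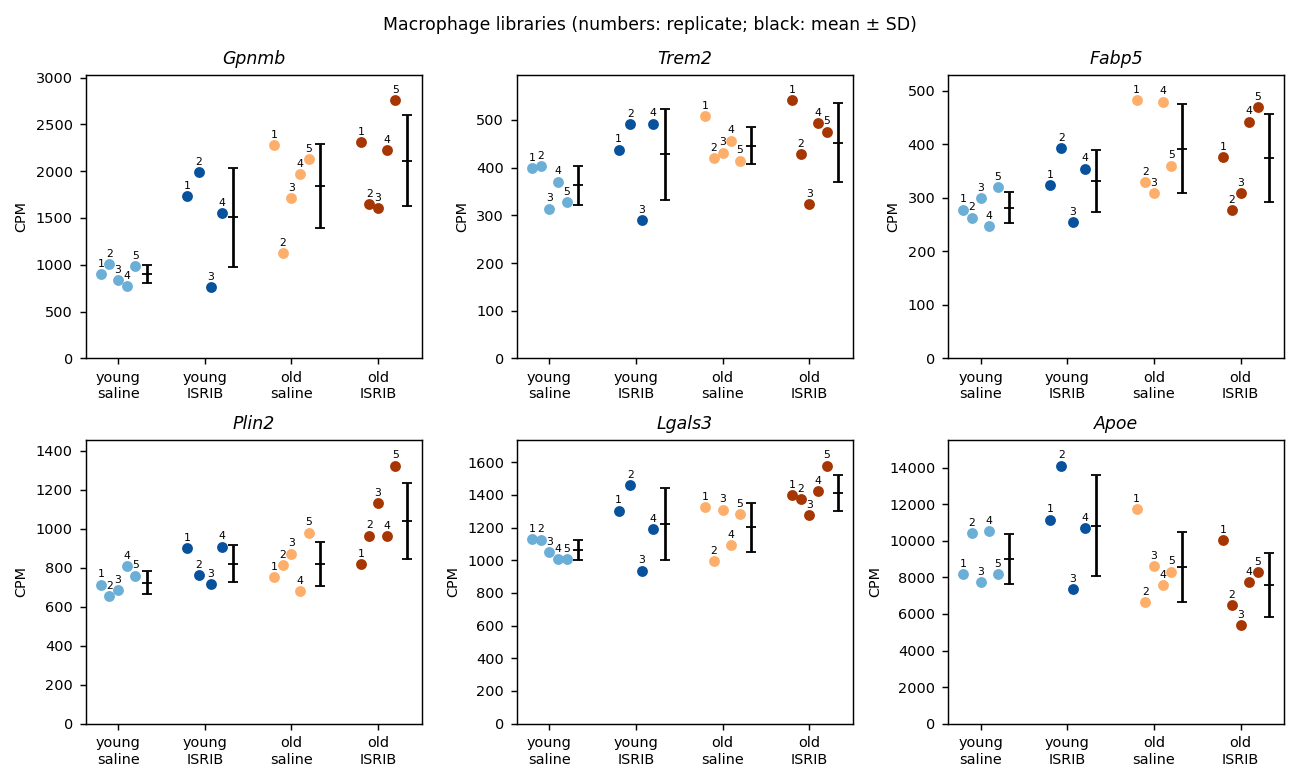
CPM of 6 genes in each macrophage library (points, numbered by replicate) in the 4 macrophage groups, with group mean ± SD in black; n = 5 except young ISRIB with n = 4. For Gpnmb all old saline points lie above all young saline points, and young ISRIB replicate 3 (757 CPM) lies apart from the other 3 libraries of its group (1552 to 1988 CPM).

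Some genes for fatty acid uptake, droplets and lipolysis, none of them members, were called higher in old macrophages. Averaged over treatments, 7 of 23 tested genes for fatty acid uptake, droplets and lipolysis were higher with age and 0 lower, where 3.12% of all genes were higher. They included Cidec (1.69 ± 0.37, log2, SE; adjusted p 0.00693), the fatty acid carrier Fabp4 (0.67 ± 0.14, adjusted p 0.00547) and the scavenger receptor Cd36 (0.67 ± 0.15, adjusted p 0.00754). The count was within 1.5 times of 7 without any 1 library and fell to 3 in the fit of all 39 libraries. In saline mice alone 3 were higher, against 0.937% of all genes: Hilpda (1.51 ± 0.36), Fabp4 (0.85 ± 0.20) and Mgll (0.55 ± 0.12), but the count was 0 without young saline replicate 2, 3 or 4, 1 without young saline replicate 5 or old saline replicate 3 or 5, and 5 without old saline replicate 1 or 2. It was also 5 with DESeq2, 9 without a filter and 0 in the fit of all 39 libraries. Under ISRIB edgeR called 0 of the 23 with age, with 10 at an unadjusted p under 0.05, against 1485 of all 12171 genes. DESeq2 called 3 there, limma voom 1 and edgeR without a filter 8.

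In the other lists, averaged over treatments, counts of called genes were read against 4.86% of all genes called and 3.12% higher. Of 19 tested further genes of lipid-associated macrophages, the cathepsins Ctsk (0.51 ± 0.10) and Ctsd (0.31 ± 0.07) were higher and 0 were lower. Ctsk averaged 529 ± 107 CPM in young saline and 721 ± 71.3 CPM in old saline macrophages (SD, n = 5 each), and 596 ± 110.0 CPM in young ISRIB (n = 4) and 891 ± 182 CPM in old ISRIB macrophages (n = 5). The count of 2 became 4 without young ISRIB replicate 1, old saline replicate 2 or old ISRIB replicate 2 and with DESeq2, 6 without a filter on low counts, and 0 in the fit of all 39 libraries. Of 20 TREM2 partners and relatives, Treml4 was higher (0.93 ± 0.20) and Adam10 (-0.33 ± 0.08), Plcg2 (-0.22 ± 0.06) and Inpp5d (-0.20 ± 0.05) were lower. PLCG2 and INPP5D act downstream of the receptor. Inpp5d was not called with no low-count filter (edgeR adjusted p 0.0566). That count of 4 was 1 without young saline replicate 4, and 2 when young ISRIB replicate 3 or 4 was left out and in the fit of all 39 libraries. Of 14 other tetraspanins and galectins, Cd82 (0.47 ± 0.11) and Cd37 (0.35 ± 0.09) were higher and 0 lower. That count of 2 was 1 without young saline replicate 3, 4 or 5, young ISRIB replicate 3 or 4, old saline replicate 3, or old ISRIB replicate 1 or 4, 4 without a filter on low counts, and 0 in the fit of all 39 libraries. Of 12 tested lipoprotein genes Scarb1 was lower (-0.36 ± 0.10), and the count of 1 ran from 0 to 5 without 1 library. Leaving out young ISRIB replicate 3 or 4, or replicate 5 of old ISRIB, gave 0, and leaving out old saline replicate 2 gave 5. DESeq2 called 4, RLE normalization 2 and edgeR without a filter 5.

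Markers of other cells moved with age too. In saline mice 5 of 8 B cell markers were higher in old macrophages, and their summed CPM was 6.82 to 30.1 in young saline and 23.02 to 428 in old saline libraries, with none of the 8 at 0 in either group. Of 8 mature alveolar macrophage markers Siglecf (0.71, adjusted p 0.0308) and Krt79 (2.66, adjusted p 0.0144) were higher, but the summed CPM was 1024 to 1368 in young saline and 905 to 1312 in old saline. Of 6 classical monocyte markers Ccr2 was lower (-1.45, adjusted p 0.00841), and the summed CPM was 313 to 542 and 126 to 259. Under ISRIB the B cell sum was 9.43 to 24.2 in young and 153 to 592 in old libraries, and the mature alveolar macrophage sum was 889 to 1378 and 1135 to 2236. Averaged over treatments, more markers differed with age. Higher were 7 of 8 B cell markers, 5 of 8 mature alveolar macrophage markers, 2 of 7 T and NK cell markers (Cd3g and Lck) and the dendritic cell gene Clec9a. The complement genes C1qa (-0.52), C1qb (-0.51) and C1qc (-0.48), among 7 interstitial macrophage markers, were lower, as were the monocyte genes Ccr2 (-1.27), Vcan (-1.58) and Ace (-0.89). Plac8 (2.68) and Treml4 (0.93) from the monocyte lists were higher. The summed CPM of T and NK cell markers was 0.918 to 4.23 in young saline and 5.86 to 14.7 in old saline macrophages, with Ncr1 at 0 in the young. That of 6 dendritic cell markers was 9.04 to 13.7 and 16.5 to 25.7, and under ISRIB 7.22 to 14.1 in young and 21.01 to 27.6 in old macrophages, without overlap. That of 5 endothelial markers was 2.17 to 5.92 in young saline and 4.53 to 14.2 in old saline macrophages, with 0 of 3 tested called. The part of all these markers in the differences of Gpnmb, the lipid genes and the other lists with age was not tested.

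**Figure D4:**
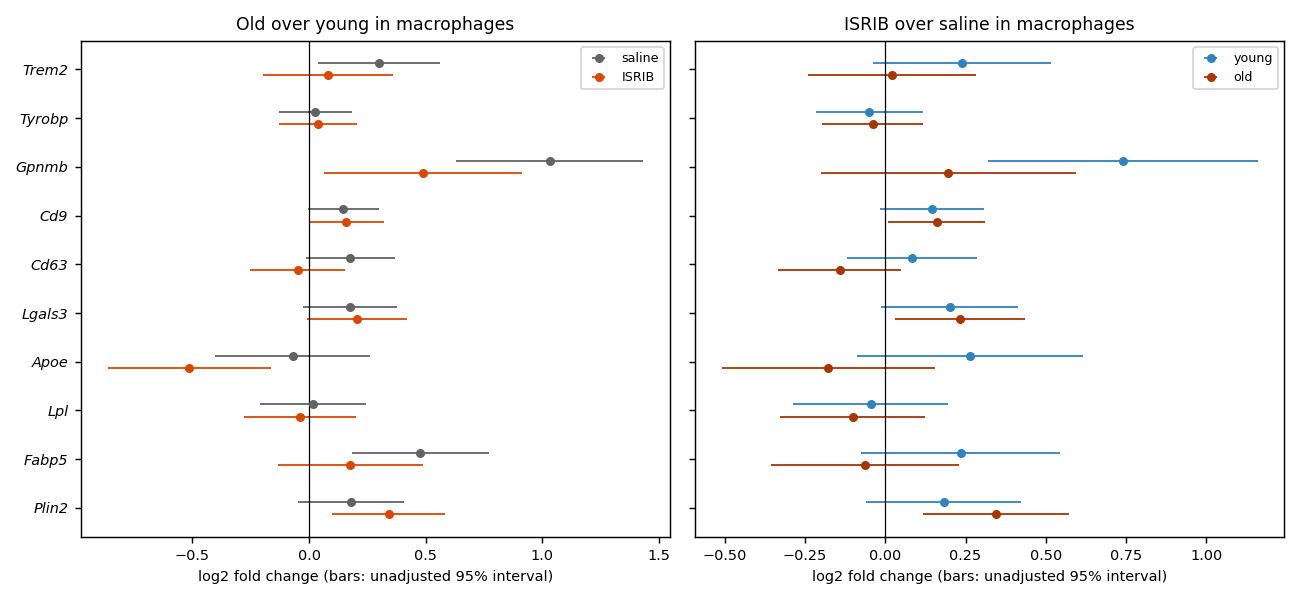
Log2 fold changes of the 10 genes in macrophages with unadjusted 95% intervals, for old over young mice (left, under saline and under ISRIB) and for ISRIB over saline (right, in young and in old mice). Gpnmb in saline mice (1.03, old over young) is the only value called; the comparisons share groups of libraries.

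ISRIB changed none of the 10 genes past the test at either age. In old macrophages edgeR called 0 of 10 members and 0% of all genes, and DESeq2 and limma voom also called 0 members. By edgeR 3 members had an unadjusted p under 0.05, against 1112 of all 12171 genes. Plin2 was 750, 814, 872, 679 and 980 CPM in old saline and 817, 965, 1129, 961 and 1323 CPM in old ISRIB macrophages. The ranges overlapped, and the log2 difference was 0.34 ± 0.11 (SE; edgeR adjusted p 0.344, and 0.0448 without a filter on low counts). Lgals3 was 1324, 995, 1309, 1093 and 1280 CPM in old saline and 1400, 1372, 1274, 1423 and 1579 CPM in old ISRIB macrophages (0.23 ± 0.10, adjusted p 0.489). Cd9 differed by 0.16 ± 0.07 (adjusted p 0.527). Trem2 differed by 0.02, with a 95% interval of -0.24 to 0.28, and Gpnmb by 0.20 (-0.20 to 0.59).

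In young macrophages edgeR, DESeq2 and limma voom also called 0 of 10 members, and edgeR called 0% of all genes. An unadjusted edgeR p under 0.05 was found for 1513 of 12171 genes and for 1 member. This was Gpnmb, at 901 ± 101 CPM under saline (SD, n = 5) and 1507 ± 531 CPM under ISRIB (SD, n = 4), with a log2 difference of 0.74 ± 0.20 (adjusted p 0.143). Young ISRIB replicate 3 at 757 CPM was below every young saline library, and the other 3 at 1552 to 1988 CPM were above all of them. Without that library the difference was 0.96 with an adjusted p of 0.00659, and without a filter on low counts the adjusted p was 8.86e-06. Trem2 differed by 0.24 (95% interval -0.04 to 0.52, adjusted p 0.475) and Apoe by 0.26 (-0.09 to 0.62, adjusted p 0.535).

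The ISRIB difference itself was compared between ages. By edgeR 0% of all genes were called, and 621 of 12171 had an unadjusted p under 0.05. Of 10 members 0 were called by edgeR, DESeq2 or limma voom and 0 had an unadjusted edgeR p under 0.05. The estimates furthest from 0 were Gpnmb (-0.54 ± 0.28, old minus young, adjusted p 0.954) and Apoe (-0.44 ± 0.23, adjusted p 0.954). Their intervals, -1.12 to 0.03 and -0.93 to 0.04, leave room for sizeable differences in either gene.

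Averaged over both ages, ISRIB against saline called 0 of 10 members by edgeR, where 0.83% of all genes were called. An unadjusted p under 0.05 was found for 2019 of 12171 genes, among them 4 members. They were Gpnmb (0.47 ± 0.14, adjusted p 0.0907), Plin2 (0.26 ± 0.08, adjusted p 0.0958), Lgals3 (0.22 ± 0.07, adjusted p 0.114) and Cd9 (0.15 ± 0.05, adjusted p 0.138). All 4 passed without young ISRIB replicate 3 (adjusted p 0.00628, 0.0401, 0.0153 and 0.0405), and Plin2 passed without old saline replicate 5 (0.0359). DESeq2 called Plin2 (0.0407) and limma voom 0. With no low-count filter edgeR called Gpnmb (2.33e-05) and Plin2 (0.0141). In the same comparison Cd36 (0.76 ± 0.15, adjusted p 0.0179) and the cholesteryl ester hydrolase Nceh1 (0.28 ± 0.06, adjusted p 0.0365) were the 2 called of 23 genes for fatty acid uptake, droplets and lipolysis. That count was 0 without young ISRIB replicate 1 or 2 and 5 without old saline replicate 3, and 1 without any 1 of 11 other libraries. It was 6 without a filter on low counts. The lysosomal proton pump subunit Atp6v0d2 (0.34 ± 0.06, adjusted p 0.0102) was the 1 called of 19 further genes of lipid-associated macrophages (4 without a filter), and it averaged 877 ± 67.0, 1214 ± 108, 1103 ± 119 and 1279.9 ± 129 CPM in young saline, young ISRIB, old saline and old ISRIB macrophages (SD, n = 5, 4, 5 and 5). Of the marker genes Siglecf (0.57, adjusted p 0.0329) and Mrc1 (0.35, adjusted p 0.0341) were higher with ISRIB, and their part in these values was not tested. The fit of all 39 libraries called none of Cd36, Nceh1 and Atp6v0d2.

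Single macrophage libraries differed in how many of the 10 genes lay below the gene's mean. All 10 genes were below their own mean over the 19 libraries in young saline replicate 5, and 9 of 10 in young saline replicates 3 and 4, whereas old saline replicates 3 and 5 and old ISRIB replicate 2 had 5 below and 5 above. Young ISRIB replicate 3 was the lowest of its 4 libraries for 9 of the 10 genes, all but Tyrobp, and its median departure from the genes' means was -0.23 on the log2 scale. That library had the highest sums of its group for mature alveolar macrophage markers (1378 CPM) and classical monocyte markers (370 CPM). Old saline replicate 1 was the highest of 5 for 7 genes, old ISRIB replicate 3 the lowest of 5 for 7, and old ISRIB replicate 5 the highest of 5 for 6. Old ISRIB replicate 3 also had the highest mature alveolar macrophage sum (2236 CPM) and B cell sum (592 CPM) of all macrophage libraries. The part of these markers in the libraries' levels was not tested. Tyrobp was the steadiest against its level, at 629 to 816 CPM, and Gpnmb the most variable, at 757 to 2757 CPM.

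**Figure D5:**
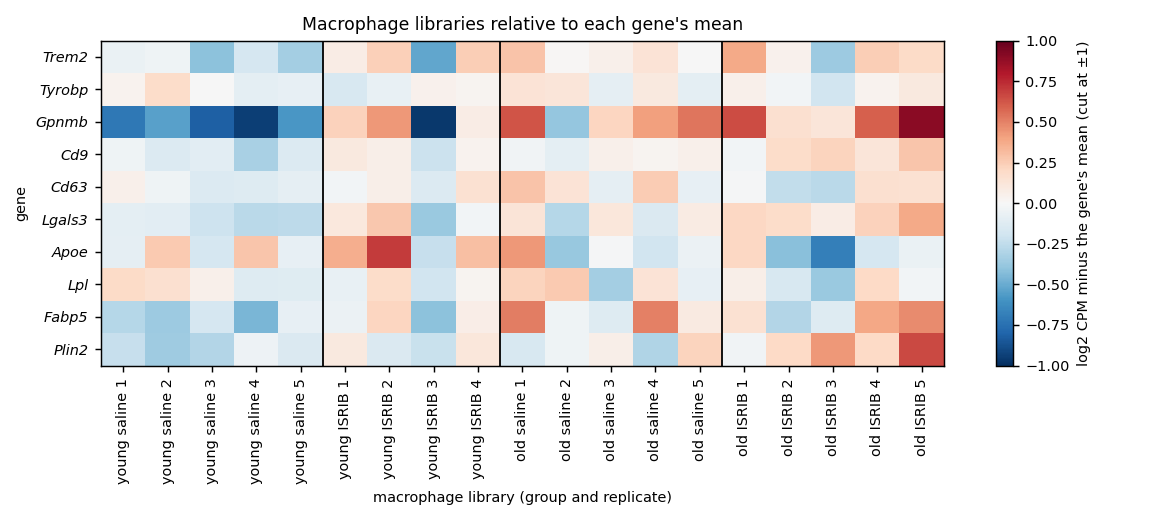
Log2 CPM of each gene in each of the 19 macrophage libraries minus the gene's mean over them (red above, blue below, colours cut at ±1), with lines between groups. The Gpnmb row runs from blue in young saline to red in most old libraries, and young ISRIB replicate 3 is blue or near 0 for all 10 genes (9 of 10 below their mean).

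In naive monocytes 0 of the 10 genes were called by edgeR, DESeq2 or limma voom in any of the 7 comparisons of age and treatment. The share of all genes called by edgeR was 0.0247% for age in saline mice, 0.123% for age averaged over treatments, and 0% in the other 5. Members at an unadjusted p under 0.05 numbered 1 for age in saline mice (Gpnmb, 1.45 ± 0.65, adjusted p 0.519), 1 for age under ISRIB (Plin2, 0.28 ± 0.13, adjusted p 0.755) and 2 for age averaged over treatments (Gpnmb, 1.02 ± 0.45, adjusted p 0.54, and Cd63, 1.21 ± 0.58, adjusted p 0.593). For ISRIB they numbered 0 in old mice, 1 in young mice (Lgals3, -0.30 ± 0.12, adjusted p 0.703) and 1 averaged over ages (Lpl, -0.74 ± 0.29, adjusted p 0.637), with 0 for the difference between ages. Of all 12170 genes, 1072, 803 and 1003 had such an unadjusted p in the comparisons of age, in that order. In those of ISRIB 918, 809, 911 and 865 did. Gpnmb in monocytes averaged 1.53 ± 1.11, 2.18 ± 1.08, 4.05 ± 1.95 and 3.30 ± 1.91 CPM in young saline, young ISRIB, old saline and old ISRIB mice (SD, n = 5 each), with wide overlap. Young saline replicate 4 had the highest level of its group for 6 of the 10 genes, Apoe (2590 CPM, against 709 to 1368 in the others) and Lpl (284 CPM, against 49.1 to 135) among them.

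The difference between the age effects in macrophages and monocytes was tested directly. Of the 10 genes 0 were called by edgeR, DESeq2 or limma voom, where edgeR called 0.743% of all genes. An unadjusted edgeR p under 0.05 was found for 1557 of 13587 genes, among them 2 of the 10. These were Cd63 (-1.11 ± 0.43, macrophages minus monocytes, adjusted p 0.263) and Apoe (-0.51 ± 0.22, adjusted p 0.341). Without young saline monocyte replicate 1, which held most of the Cd63 counts of its group, Cd63 was called (adjusted p 0.0241). Gpnmb had a difference of -0.31 with an interval of -1.09 to 0.47, so its age effect in macrophages was not shown to differ from that in monocytes, where its counts are few.

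The genes most like Trem2 over all 39 libraries, by the root mean square difference of centred log2 CPM among 13494 genes, were Pla2g15 (0.33), Ptgfrn (0.34), S100a1 (0.34), Alas1 (0.37) and Ecm1 (0.37), against a median of 1.75. Pla2g15, a lysosomal phospholipase, averaged 49.3 ± 8.19 CPM in young saline monocytes and 384 ± 33.7 CPM in young saline macrophages (SD, n = 5 each). The genes most like Gpnmb were the transcription factor Bhlhe41 (0.81), the transporter Slco2b1 (0.998), the elastase Mmp12 (1.02), Ahnak2 (1.03) and Ctsk (1.08), against a median of 4.74. Bhlhe41 averaged 174 ± 27.7 CPM in young saline and 273 ± 54.8 CPM in old saline macrophages (SD, n = 5 each), and under 1 CPM in each monocyte group. The measure takes in the difference between cell types. Within the macrophage libraries the closest pair of members was Tyrobp and Cd63 (0.121), and Cd63 and Lpl (0.123) and Cd9 and Lgals3 (0.126) were nearly as close. The most distant pair was Gpnmb and Apoe (0.62). Steady genes lie close by this measure whether or not they vary together.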

How the data were processed

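RNA was isolated from sorted cells with a PicoPure kit, and polyA libraries were made from 3 ng of total RNA and sequenced on a NextSeq 500, per the labels' protocols. The submitters' processing notes name bcl2fastq 2.19.1, FastQC, Trimmomatic 0.36, STAR 2.6.0, HTSeq 0.11.2 and mm10. The annotation release is not given in the sources used here, nor is the strand setting. The authors deposited whole-number counts per Ensembl gene, unscaled and unfiltered. IDs were matched to symbols and positions in GENCODE vM21 (GRCm38): 42462 of 43430 had a symbol (97.8%).

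Counts were tested with edgeR 4.0.16 in R 4.3.3 (glmQLFit and glmQLFTest, TMM, filterByExpr with a minimum count of 10 and a minimum total of 15, Benjamini-Hochberg adjustment over all genes tested), called at an adjusted p under 0.05. The 19 macrophage libraries (12171 genes) and 20 monocyte libraries (12170 genes) were fitted apart, and all 39 (13587 genes) across cell types, with a mean per group and no covariate. The test was checked on simulated data. SE is the log2 fold change divided by the root of F. DESeq2 1.42.0 and limma 3.58.1 (voom) were alternatives, beside other normalizations, no filter, a replicate block, other sample sets and leaving out each library. Within groups, 76 library pairs had a chi-square per degree of freedom of 7.04 to 52.8, so none was a duplicate. Ratios of shares have exact binomial intervals at 95%, which cover counting error only. Near-identical transcripts were searched with BLAST 2.17.0 against GENCODE transcripts. In lists, the named genes are up to 3 called ones per direction, by fold change, with 5 CPM or more in the higher group on average. The members, lists and comparisons were chosen with earlier results of these data known.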

Additional observations from a re-analysis of the deposited data

Results flagged for a closer look

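Within each group, every gene's highest and lowest library was compared with its nearest neighbour by Dixon's criterion, in 80 gene and group combinations; chance flags about 1 in 20. In 4 combinations a library stood apart, all in monocytes. Gpnmb was 0.320 CPM in young ISRIB monocyte replicate 1, where the next lowest library had 2.39 CPM. Cd63 was 1.58 CPM in young saline monocyte replicate 1, where the next highest had 0.327 CPM, and 0.729 CPM in young ISRIB monocyte replicate 3, where the next lowest had 1.17 CPM. These Gpnmb and Cd63 values rest on few counts. Lgals3 was 824 CPM in old ISRIB monocyte replicate 5, where the next highest library had 693 CPM.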

How the results depend on the processing

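Of 140 counts of called members recomputed under other settings, 129 stayed within 1.5 times of the reported count and 11 did not. DESeq2 called 2 members for age in saline macrophages, 3 for age averaged over treatments and 1 for ISRIB averaged over ages. Without a filter on low counts edgeR called 1 member for ISRIB in old and 1 in young macrophages, 2 and 3 for age in saline and ISRIB macrophages, 4 for age and 2 for ISRIB averaged. The fit of all 39 libraries called 0 for age in saline macrophages. Leaving out 1 library moved 10 of 273 counts: the range was 0 to 1 for ISRIB in young macrophages, 0 to 4 for ISRIB averaged over ages, 1 to 2 for age averaged over treatments, and 0 to 1 for the difference between the age effects of the cell types. The cause was not tested. The share of all genes called under each of these settings is not given here, so these counts are not set against it. Without a filter, calls outside the members rose too. For age in saline macrophages the list for fatty acid uptake, droplets and lipolysis went from 3 to 9 called. The MiT/TFE factors stayed at 0.

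Libraries of different groups share replicate numbers, but in no comparison did all same-numbered libraries deviate together (correlations of -0.155 to 0.138). A replicate block called 2 members for ISRIB averaged over ages in macrophages, Gpnmb (adjusted p 0.0437) and Plin2 (0.0367), where the fit without it called 0, and changed no other count of members. Under the block Plcg2 was not called for age averaged over treatments (adjusted p 0.0505).

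For members other than Gpnmb, 52 values had an unadjusted edgeR p of 0.05 or more, within macrophages or in macrophages against monocytes. Of their 1067 recomputed values 60 had the other sign, none called and none from a log2 difference beyond 0.140. The 9 of 10 genes higher in macrophages than in monocytes were counted alike under every alternative run. Depth limits Cd63 and Gpnmb in monocytes, with 226 and 503 counts in 20 libraries.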
